A study of Homo sapiens with 6 samples.

Results

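The 39 genes described here are switched on by interferon or prepare peptides for display on the cell surface. Their members are every probe set whose symbol in the platform's probe table is one of the 39, a step that uses no measured value. The 39 symbols themselves were chosen with earlier results of these data known. Of the 39, 38 have at least 1 probe set of their own, out of 11963 genes that the table names by 1 symbol, and together they hold 53 probe sets. STAT2 has none, so its level was not analysed here. By role the list holds 4 transcription factors, 5 antigen-processing genes and 30 antiviral effectors.

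The values come from Hs578T, an established mesenchymal line of human breast cancer in which the homeobox transcription factor HOXA5 can be induced. All 6 arrays carry RNA of this HOXA5-inducible line. The groups are uninduced cells (0 h) and cells induced for 6 h and for 9 h, with 2 arrays each, 1 from experiment 1 and 1 from experiment 2, which the labels describe as 2 batches of RNA. The series asks which genes HOXA5 controls. The agent that induces HOXA5, the promoter that drives it and the number of clones are not given in the sources used here. Uninduced cells at 6 h or 9 h were not analysed here, so induction, time in culture and any inducing agent cannot be told apart. HOXA5 has no probe set in the probe table, so its own level was not analysed here. Nothing in the labels says that the 2 batches were separate cultures, so the p-values measure the spread between these arrays, which may be technical. The 6 h array called experiment 2 by its title has a lot line that names experiment 1, and the title was followed. Precision is limited by the small number of arrays.

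Interferons bind receptors on the cell surface and activate JAK kinases, and the signal ends in transcription factors at the promoters of the response genes. Complexes that hold IRF9 bind a DNA element called the interferon-stimulated response element (ISRE), and another element of such promoters is the gamma-activated sequence (GAS). Antiviral effectors block steps of viral entry, translation and replication. The immunoproteasome subunits PSMB8, PSMB9 and PSMB10 replace the constitutive subunits PSMB5, PSMB6 and PSMB7, and the transporter of TAP1 and TAP2 carries the resulting peptides to class I molecules.

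Brightness differed between the arrays, with deposited medians from 18.7 in the 6 h array of experiment 1 to 95.7 in the 0 h array of experiment 1. The intensities were therefore quantile normalised, and a change below is relative to the whole array. Without that scaling the 10444 tested genes had median log2 changes of -1.38 (6 h) and -0.58 (9 h) against 0 h. Normalised values below 12.7 intensity units were set to that value, called the floor. The floor was the 25th percentile of the positive normalised values, so the share of probe sets above it was largely fixed by the processing. That share ran from 74.9% (6 h array of experiment 1) to 75.1% (0 h array of experiment 2). A marker above the floor is therefore not by itself a sign that its cell type was present. All 12 markers of a mesenchymal breast line, among them vimentin, lay above the floor in the 6 arrays, and their summed intensity was 23045 and 24378 (0 h), 22248 and 24971 (6 h), 22674 and 25829 (9 h). The luminal markers EPCAM, CLDN4 and PGR were at the floor in the 6 arrays, and 5 to 6 of the 9 luminal markers lay above it, their summed intensity lying between 288 and 413. Of 14 leukocyte markers 8 to 11 lay above it, with a summed intensity of 415 and 354 (0 h), 423 and 479 (6 h), 305 and 427 (9 h), and LCP2 was at the floor in every array. That of the 5 endothelial markers lay between 90.5 and 98.0, with CDH5 at the floor in every array. For ACTB the 3′ over 5′ ratio, a sign of RNA quality, was 1.82 in the 9 h array of experiment 1 and between 0.918 and 1.09 in the others. In bulk RNA, fewer cells of a type and less RNA per cell cannot be told apart. The part of other cells or of RNA quality in the results below was not tested.

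RefSeq promoter windows on GRCh38.p14, from 250 bases before to 50 bases after the start of transcription, were matched for 31 of the 39 members. For a member only the first listed window was used, while the share over all promoters counts every window. Any other promoter of a member was not searched. The ISRE was searched on both strands as GAAA, any 2 bases and GAAA again, GAS as the palindrome TTCNNNGAA, and a homeobox core as the palindrome TAATTA. The kappaB element was searched on both strands too. An ISRE match lay in 19 of 31 member windows (61.3%), beside 3.57% of all 35116 promoter windows. It was found in 16 of 23 antiviral, 3 of 5 antigen-processing and 0 of 3 transcription factor windows, those of IRF1, IRF9 and STAT2. A GAS match lay in 7 of 31 member windows (22.6%, beside 7.66% of all), a kappaB match in 6 of 31 (19.4% beside 5.91%) and the homeobox core in 1 of 31 (3.23% beside 4.84%), that of BST2. A match is a description of these letters and says nothing of binding in these cells.

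The 5 windows below belong to members with and without an ISRE whose values are given further on, and are printed 5′ to 3′ with ISRE and GAS matches in capitals.
TAP1, chr6:32853655-32853954, minus strand: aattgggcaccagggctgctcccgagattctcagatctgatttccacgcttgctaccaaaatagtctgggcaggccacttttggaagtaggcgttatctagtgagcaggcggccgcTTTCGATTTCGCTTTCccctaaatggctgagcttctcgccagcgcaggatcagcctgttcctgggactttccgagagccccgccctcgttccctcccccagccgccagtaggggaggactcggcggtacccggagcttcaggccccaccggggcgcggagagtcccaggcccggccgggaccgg
PSMB10, chr16:67936801-67937100, minus strand: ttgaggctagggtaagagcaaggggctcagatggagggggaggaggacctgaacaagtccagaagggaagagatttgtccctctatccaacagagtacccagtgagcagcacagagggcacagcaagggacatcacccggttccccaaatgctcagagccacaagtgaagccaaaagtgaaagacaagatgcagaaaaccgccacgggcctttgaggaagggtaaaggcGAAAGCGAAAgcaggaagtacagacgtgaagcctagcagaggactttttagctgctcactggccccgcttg
MX1, chr21:41420308-41420607, plus strand: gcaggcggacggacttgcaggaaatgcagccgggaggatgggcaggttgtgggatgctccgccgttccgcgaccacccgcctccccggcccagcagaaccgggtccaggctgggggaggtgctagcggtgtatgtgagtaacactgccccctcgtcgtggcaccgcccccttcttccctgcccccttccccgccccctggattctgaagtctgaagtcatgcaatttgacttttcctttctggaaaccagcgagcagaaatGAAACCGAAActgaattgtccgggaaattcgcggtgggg
IFI6, chr1:27672143-27672442, minus strand: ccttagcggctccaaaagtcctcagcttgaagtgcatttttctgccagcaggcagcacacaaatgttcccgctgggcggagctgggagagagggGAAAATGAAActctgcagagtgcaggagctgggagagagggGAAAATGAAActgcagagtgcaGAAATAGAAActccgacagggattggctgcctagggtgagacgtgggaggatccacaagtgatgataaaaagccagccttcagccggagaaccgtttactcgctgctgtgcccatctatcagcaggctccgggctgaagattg
IRF1, chr5:132490724-132491023, minus strand: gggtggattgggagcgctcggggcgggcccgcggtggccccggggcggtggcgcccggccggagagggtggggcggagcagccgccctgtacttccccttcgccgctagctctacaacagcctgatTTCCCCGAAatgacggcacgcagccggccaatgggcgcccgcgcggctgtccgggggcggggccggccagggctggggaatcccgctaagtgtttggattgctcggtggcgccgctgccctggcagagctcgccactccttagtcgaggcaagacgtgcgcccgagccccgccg
In TAP1 the overlapping ISRE matches start 134 and 128 bases before the start of transcription, and kappaB matches start 72 bases before and 23 bases after it. The ISRE match of PSMB10 starts 21 bases before the start site and that of MX1 at base 12 after it. IFI6 has 3 ISRE matches, 156, 115 and 93 bases before the start, the first 2 with the same letters. IRF1 has a GAS match 124 bases and a kappaB match 50 bases before its start, and no ISRE. TAP1 and PSMB9 are neighbours read in opposite directions from start sites 488 bases apart, and their windows share 13 bases.

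Of the transcription factors, IRF1 and IRF7 had higher values in both induced groups than at 0 h, relative to the whole array, and IRF9 did not separate the groups. None passed the limma test over all 18360 tested probe sets. IRF1, which binds the ISRE and drives antigen-processing genes, had log2 changes of 0.71 ± 0.36 (standard error, n = 2 arrays per group) at 6 h and 1.37 ± 0.36 at 9 h, the latter 2.59-fold. IRF7, an amplifier of type I interferon production, had 1.46 ± 0.41 (2.76-fold) and 1.21 ± 0.41 (2.31-fold).

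IRF1 read 142 and 147 (0 h), 215 and 260.1 (6 h), 506 and 276 (9 h), in normalised intensity units of experiments 1 and 2. Its 4 induced arrays lay above both 0 h arrays, and the 9 h array of experiment 1, the one with the ACTB ratio of 1.82, stood highest. In experiment 2 alone the log2 change at 9 h was 0.91. IRF7 read 28.3 and 38.4 (0 h), 88.6 and 93.6 (6 h), 80.2 and 72.5 (9 h). Every induced array was again above both uninduced arrays, and the experiments differed little at 6 h. IRF9, the subunit that brings its complex to the ISRE, read 124 and 96.7 (0 h), 35.7 and 142 (6 h), 104 and 113 (9 h), with the 6 h array of experiment 1 below the other 5 and all groups overlapping. Its log2 changes were -0.62 ± 0.64 and -0.01 ± 0.64, and within the experiments it went -1.80 and 0.55 at 6 h. The limma adjusted p of IRF1 was 0.969 at 6 h and 0.559 at 9 h, and that of IRF7 0.969 and 0.619. In unscaled values IRF1 had -0.82 at 6 h and 0.86 at 9 h, so its direction at 6 h turns there, and IRF7 had 0.03 and 0.65. The deposited values of IRF7 were 56 and 38.4 (0 h), 31.3 and 71.8 (6 h), 85 and 62.2 (9 h). Without scaling IRF7 was thus lower at 6 h than at 0 h in experiment 1 and higher in experiment 2.

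**Figure D1:**
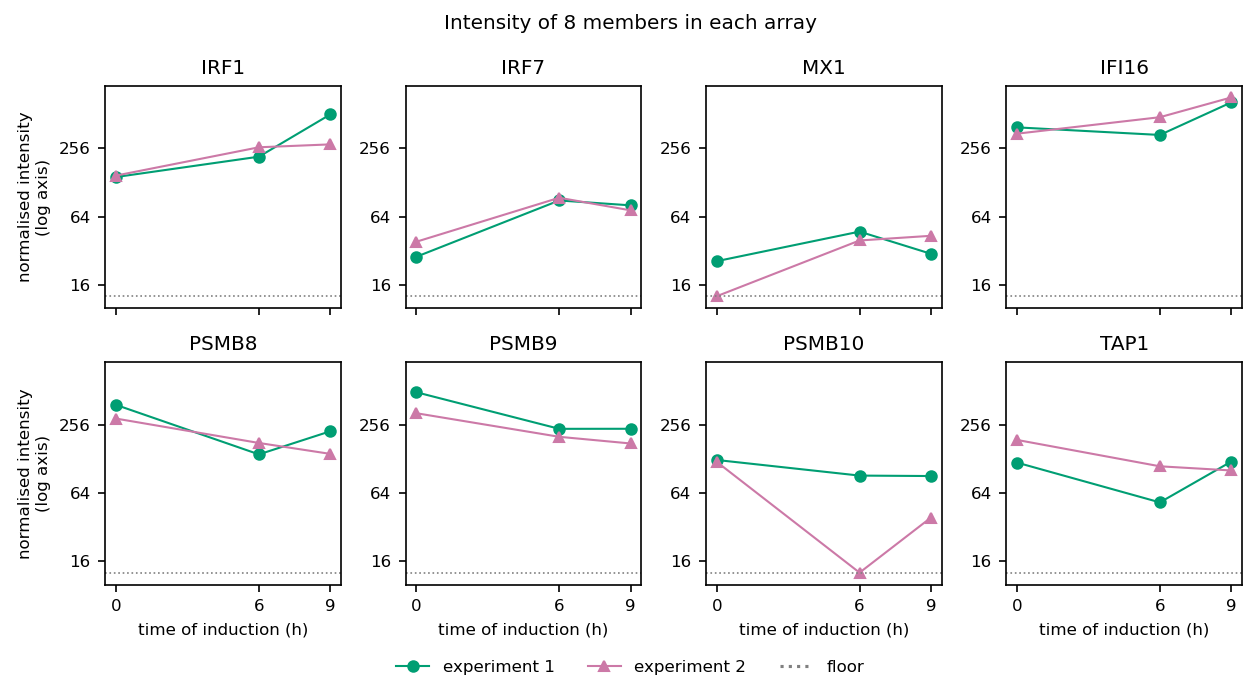
Normalised intensity (log axis) of 8 members against the time of induction in hours, with 1 point per array joined within experiment 1 (circles) and experiment 2 (triangles), and the floor of 12.7 units dotted. IRF1 and IRF7 lie above their 0 h values in every induced array, while PSMB8, PSMB9 and PSMB10 lie below them.

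Antigen-processing genes lay mostly on the lower side. The median log2 change of the 5 genes was -0.97 at 6 h and -0.90 at 9 h, beside 0.01 and -0.02 over all tested genes, and 0 of the 5 passed the limma test at either time. Within experiments 1 and 2 the medians were -1.07 and -0.71 at 6 h, and -0.47 and -0.89 at 9 h. At 6 h both induced arrays were below both 0 h arrays in 4 of the 5, and at 9 h in 3. Over all tested genes that was so in 15.3% at 6 h and 19.4% at 9 h. The 6 h and 9 h comparisons share their 0 h arrays.

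PSMB8, the immunoproteasome counterpart of PSMB5, read 381 and 289 (0 h), 139.8 and 176 (6 h), 223 and 141 (9 h). PSMB9, the counterpart of PSMB6, read 492 and 322 (0 h), 234 and 199.5 (6 h), 235 and 174 (9 h). In both genes the 4 induced arrays lay below the 2 uninduced ones. The log2 changes of PSMB8 were -1.08 ± 0.35 and -0.90 ± 0.35 at 6 h and 9 h, with a limma adjusted p of 0.969 and 0.656, and those of PSMB9 were -0.88 ± 0.33 and -0.98 ± 0.33, with 0.969 and 0.619. At 6 h PSMB8 had -1.45 and -0.71 in experiments 1 and 2, and PSMB9 had -1.07 and -0.69. At 9 h these were -0.77 and -1.03, and -1.07 and -0.88. PSMB10, the counterpart of PSMB7, read 125 and 120.2 (0 h), 91.0 and 12.7 (6 h), 90.1 and 38.9 (9 h), where 12.7 is the floor. Its change was larger in experiment 2, -3.24 at 6 h and -1.63 at 9 h against -0.46 and -0.47 in experiment 1.

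The constitutive subunits are given beside them. PSMB5 had log2 changes of -0.05 ± 0.26 at 6 h and -0.41 ± 0.26 at 9 h, PSMB6 -0.27 ± 0.23 and -0.34 ± 0.23, and PSMB7 0.03 ± 0.34 and 0.03 ± 0.34. None of the 3 passed the limma test, and the difference between a subunit and its counterpart was not tested.

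TAP1, the first chain of the peptide transporter, read 118 and 187 (0 h), 52.9 and 109.8 (6 h), 121 and 101 (9 h). At 6 h both arrays were below both 0 h arrays, with a log2 change of -0.97 ± 0.47, while at 9 h the array of experiment 1 was back among the 0 h values and the change was -0.43 ± 0.47. TAP2, its partner chain, read 93.7 and 113 (0 h), 130.3 and 106 (6 h), 76.0 and 95.3 (9 h) on the brightest of its 3 probe sets, with overlapping groups and log2 changes of 0.19 and -0.28. A further TAP2 probe set had 0.11 and 0.31, so the direction at 9 h differs between probe sets, and the last was at the floor in all arrays. In unscaled values the brightest TAP2 probe set had -1.29 at 6 h.

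Antiviral effectors lay on both sides of 0, more of them below it, and 0 passed the limma test at 6 h or 9 h. Of 30, 28 were tested, their median log2 change being -0.15 at 6 h (9 above and 19 below 0) and -0.26 at 9 h (9 above and 19 below). Within experiments 1 and 2 the medians were -0.29 and 0.00 at 6 h, and -0.20 and -0.09 at 9 h. At 6 h the groups did not overlap in 2 higher and 4 lower members, beside 16.8% and 15.3% of all tested genes. At 9 h that held for 2 and 7, beside 19.2% and 19.4%. With the 0 h array of experiment 1 left out, the median was 0.06 at 6 h and -0.05 at 9 h, and without that of experiment 2 it was -0.38 and -0.40.

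On the higher side, MX1, a GTPase that traps viral nucleocapsids, read 25.9 and 12.7 (0 h), 47.1 and 39.4 (6 h), 30.1 and 43.3 (9 h). Both groups of induced arrays lay above both 0 h arrays, of which that of experiment 2 was at the floor. Its log2 changes were 1.25 ± 0.50 and 0.99 ± 0.50, and in unscaled values 0.01 and 0.47. The deposited values of MX1 were 51.3 and 7.4 (0 h), 18.1 and 31.9 (6 h), 28.7 and 37.6 (9 h), so in experiment 1 the direction turns without scaling. IFI16, a sensor of DNA in nucleus and cytoplasm, read 389 and 343 (0 h), 334 and 478 (6 h), 646 and 714 (9 h) on its brightest probe set. Only the 9 h arrays stood apart, with a log2 change of 0.89 ± 0.27 (1.86-fold, limma adjusted p = 0.596) against 0.13 ± 0.27 at 6 h. The other IFI16 probe sets had 1.07 and 0.98 at 9 h. The IFI16 promoter window holds no ISRE or GAS match.

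EIF2AK2 (PKR), the kinase that halts translation on sensing double-stranded RNA, read 237 and 149 (0 h), 287 and 226 (6 h), 177 and 180.5 (9 h), a log2 change of 0.44 at 6 h on its brightest probe set and -0.63 on the other. XAF1, which promotes cell death after interferon, read 20.1 and 19.3 (0 h), 36.9 and 20.1 (6 h), 12.7 and 20.9 (9 h) and had 0.47 at 6 h. Among its 6 arrays the 6 h array of experiment 1 stood alone above the rest. The guanylate-binding protein GBP1 read 104 and 119.9 (0 h), 127 and 157 (6 h), 161 and 95.5 (9 h), with both 6 h arrays above the 0 h arrays and a log2 change of 0.34. At 9 h GBP2, another of that family, had 0.32 with overlapping groups. It read 61.1 and 38.7 (0 h), 69.8 and 49.8 (6 h), 67.1 and 54.8 (9 h). SP110, a nuclear body protein, read 82.3 and 112 (0 h), 91.9 and 116 (6 h), 109 and 171 (9 h) and had 0.50 at 9 h, a sign shared by 2 of its 4 probe sets. XAF1, EIF2AK2 and GBP1 were below 0 in unscaled values at 6 h (-0.81, -1.09 and -1.15), as were SP110 and GBP2 at 9 h (-0.05 and -0.23).

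On the lower side, IFITM2, which blocks the entry of viruses through endosomes, read 3414 and 1433 (0 h), 1852 and 959.8 (6 h), 1776 and 743 (9 h). Within each experiment the order was the same, the induced arrays lying below the 0 h array, but the level was lower in experiment 2 and the groups overlapped. The log2 changes were -0.73 ± 0.57 and -0.95 ± 0.57, by -0.88 and -0.58 in the experiments at 6 h and -0.94 and -0.95 at 9 h. OAS1, which makes the oligoadenylates that activate RNase L, read 88.8 and 32.8 (0 h), 46.3 and 16.4 (6 h), 43.0 and 19.4 (9 h) and had log2 changes of -0.97 ± 0.74 and -0.90 ± 0.74. At each time the array of experiment 2 was the lower one. Its other probe set had 0.03 at 6 h and -0.54 at 9 h.

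TRIM22, a ubiquitin ligase with antiviral activity, read 48.1 and 22.4 (0 h), 20.0 and 12.7 (6 h), 44.7 and 12.7 (9 h), with a log2 change of -1.04 ± 0.68 at 6 h and -0.46 ± 0.68 at 9 h. Both 6 h arrays were below the 0 h arrays, and the array of experiment 2 was at the floor at 6 h and 9 h. IFI44, an interferon-induced cytoplasmic protein, read 73.9 and 60.6 (0 h), 56.6 and 24.2 (6 h), 47.3 and 42.3 (9 h) and had -0.85 ± 0.53 at 6 h, where its other probe set had 0.64. IFIT2, which binds viral RNA and curbs its translation, read 53.2 and 18.1 (0 h), 28.6 and 12.7 (6 h), 13.3 and 12.7 (9 h), and its log2 change of -1.25 ± 0.61 at 9 h was larger in experiment 1 (-2.00 and -0.51). ISG15, the ubiquitin-like modifier, read 141 and 125 (0 h), 147 and 63.7 (6 h), 123 and 59.0 (9 h), with both 9 h arrays just below the 0 h arrays in experiment 1 and well below in experiment 2 (log2 change -0.65 ± 0.54). None of these antiviral members passed the limma test at 6 h or 9 h.

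IFITM3, the entry inhibitor next in the family to IFITM2, read 4665 and 3320.1 (0 h), 3991 and 3274 (6 h), 3255 and 3070.2 (9 h), and its log2 change at 9 h was -0.32. OAS2, a further oligoadenylate synthetase, read between 36.4 and 54.6 at 0 h, with both groups of induced arrays below the 0 h arrays and log2 changes of -0.53 and -0.64 on its brightest probe set, while its other probe set had 1.01 ± 0.49 and -0.11. IFIT5, an RNA-binding relative of IFIT2, had induced arrays below the 0 h arrays at both times, with -0.40 and -0.52, and IFI35 had -0.38 at 9 h without overlap. Of the untested members, BST2, which tethers budding viruses to the cell, was at the floor in all 6 arrays, and IFI44L was above it in 1.

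**Figure D2:**
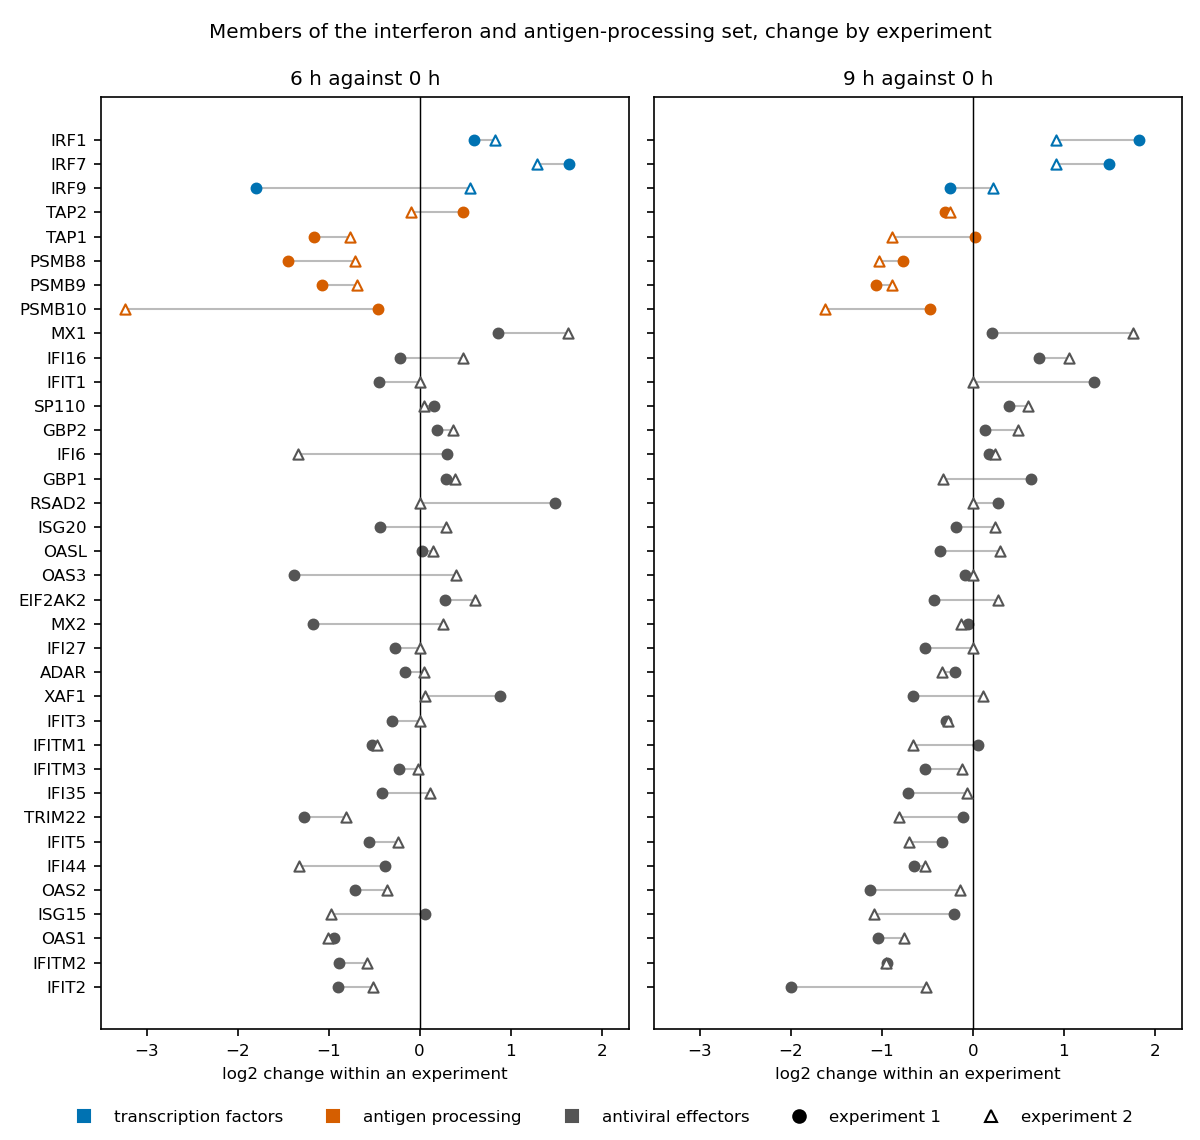
Log2 change of the 36 tested members within experiment 1 (filled circles) and experiment 2 (open triangles) at 6 h (left) and 9 h (right) against 0 h, coloured by role and ordered within a role by the change at 9 h. IRF1 and IRF7 lie right of 0 and PSMB8, PSMB9 and PSMB10 left of it in both experiments and at both times, and the antiviral effectors spread around 0.

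Over all 36 tested members the median log2 change was -0.19 at 6 h and -0.27 at 9 h. By limma 0 members passed at an adjusted p of 0.05 in the comparisons of times, as did 0 of 18360 probe sets (0%). At an unadjusted p under 0.05, 2 members lay higher and 2 lower at 6 h, beside 2.38% and 1.84% of all tested genes. These were IRF7 and MX1, and PSMB8 and PSMB9. At 9 h 3 lay higher (IRF1, IRF7 and IFI16) and 2 lower (PSMB8 and PSMB9), beside 4.7% and 3.21%. With the experiment as a replicate block these counts were 3 higher and 6 lower at 6 h, beside 5.21% and 4.53% of all tested genes, and 3 and 4 at 9 h, beside 8.28% and 6.8%. The members on the lower side were then PSMB8, PSMB9, PSMB10, TAP1, TRIM22 and IFITM2 at 6 h, and PSMB8, PSMB9, IFIT2 and IFITM2 at 9 h. After adjustment with that block, 66 probe sets passed at 9 h (0.359%) and 0 members did, the lowest limma adjusted p being 0.0743 for IFITM2 and 0.104 for IRF1.

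**Figure D3:**
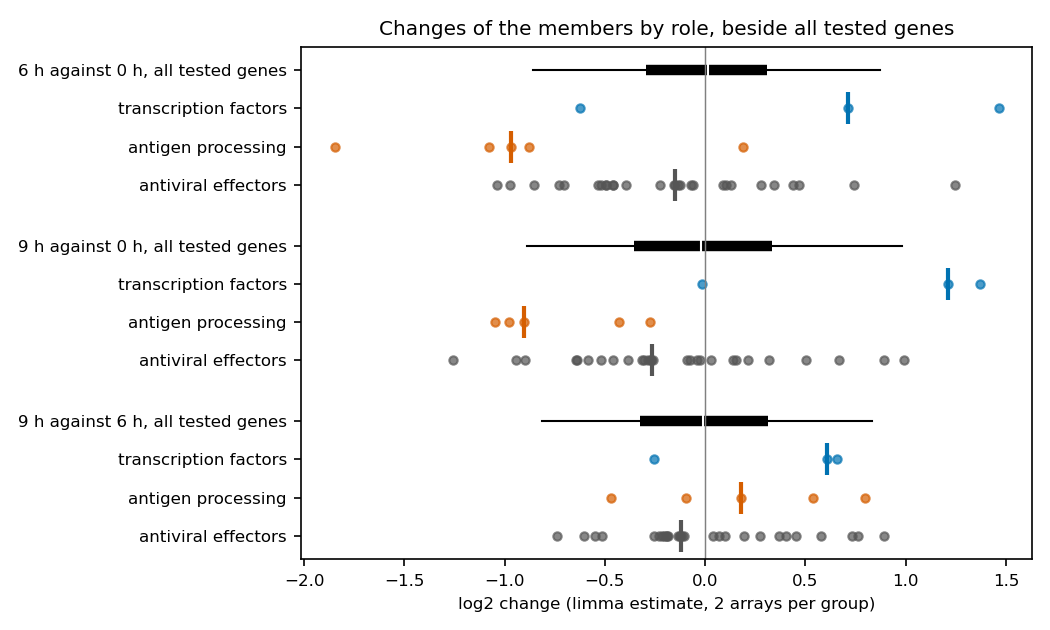
Log2 change of each tested member (points) by role for 6 h against 0 h, 9 h against 0 h and 9 h against 6 h, with the median of the role as a vertical tick. The black bars give the 5th to 95th (thin) and 25th to 75th (thick) percentile of all 10444 tested genes, and 4 of 5 antigen-processing genes at 6 h lie left of the thin bar.

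Members with and without an ISRE match lay on both sides of 0. The 17 tested members with a match had medians of -0.22 (6 h) and -0.28 (9 h) in log2 change, and the 11 without had -0.06 and -0.27. Windows without a match, among them those of OAS1, RSAD2 and XAF1, can hold GAAACGAAA, a closer spacing that was not searched. Among those with a match were MX1 on the higher side and TAP1 and PSMB10 on the lower side. This is a description of the members with a promoter window and was not tested.

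The median log2 change of 9 h against 6 h was -0.10 over the 36 members, 0.18 for antigen processing, -0.12 for the antiviral effectors and -0.01 over all tested genes. By limma 0 members passed, 1 had an unadjusted p under 0.05 (beside 2.52% of all genes higher and 2.52% lower), and with the experiment as a block 0 passed. That member was IFI16, at 0.76 ± 0.27 (0.95 and 0.58 in the experiments). IRF1 had 0.66 ± 0.36, by 1.24 and 0.08, and in experiment 2 it stayed near its 6 h value. The groups did not overlap in 2 higher members (IRF1 and IFI16) and 6 lower ones (IRF7, TAP2, IFI35, IFITM3, EIF2AK2 and ADAR), beside 14.8% and 15.4% of all tested genes. Without scaling the 9 h against 6 h medians of all genes (0.79), the members (0.83) and the antiviral effectors (0.82) turn to above 0. That of antigen processing was above 0 either way (1.17 without scaling).

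The 1 call among the members was between the experiments. With time in the model, IFITM2 was lower in experiment 2 than in experiment 1, with a log2 difference of -1.15 ± 0.15 (2.22-fold, n = 3 arrays per experiment, limma adjusted p = 0.00648). At 0 h, 6 h and 9 h the difference was -1.25, -0.95 and -1.26. It was the 1 call among 36 members, beside 2.48% of all tested probe sets (455). The call was lost in unscaled values (adjusted p = 1), without a filter on dim probe sets (0.264), without the intensity trend (0.149) and with the lot line as the batch (0.694), where no probe set passed. Its 1 probe set ends in _x_at, so leaving out such probe sets gives it no value. Over the alternatives that could measure it, its adjusted p ran from 5.4e-05 to 1, and it passed in each of the 6 fits that left out 1 array.

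OAS1 had a log2 difference of -1.36 ± 0.37 between the experiments, IFI6 -1.69 ± 0.44 and PSMB10 -1.37 ± 0.50, and none of these passed (limma adjusted p = 0.0849, 0.0778 and 0.173). IFI6, a mitochondrial protein that protects cells from death, read 72.3 and 32.3 (0 h), 89.0 and 12.7 (6 h), 81.9 and 38.3 (9 h). Each array of experiment 2 was below each of experiment 1, and that at 6 h was at the floor. IFITM1, a further entry inhibitor, had -1.19 ± 0.31 and also did not overlap (adjusted p = 0.0755). On the other side OAS3, another oligoadenylate synthetase, read 73.7 and 86.5 (0 h), 28.3 and 114 (6 h), 69.5 and 86.5 (9 h), with a difference of 0.85 ± 0.41 that was largest at 6 h. ISG20, an RNA exonuclease, read 54.9 and 59.3 (0 h), 40.6 and 72.5 (6 h), 48.2 and 70.2 (9 h) and differed by 0.50 ± 0.36. SP110 differed by 0.48 ± 0.27. Of 28 antiviral members 12 were lower in experiment 2 at all 3 times and 3 higher, beside 18.1% and 22.3% of all tested genes. At an unadjusted p under 0.05, 8 of the 36 members were on the lower side, beside 9.86% of all tested genes, and 0 on the higher side, beside 10.5%. The arrays of the experiments did not overlap in 6 lower and 3 higher members, beside 9.39% and 10.6%. The antiviral median difference was -0.27, beside 0.05 over all genes. The brightest probe sets of IFITM2, IFITM3, IFI16, GBP1, EIF2AK2 and SP110 carry the _x_at suffix. Those of IRF7, PSMB8, TAP1, TAP2, TRIM22, IFIT5, IFI35, IFI44, IFITM1, ISG15 and ADAR carry the _s_at suffix. These suffixes mark probes shared with related sequences, so near-identical members of a family such as the IFITM genes may share signal.

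**Figure D4:**
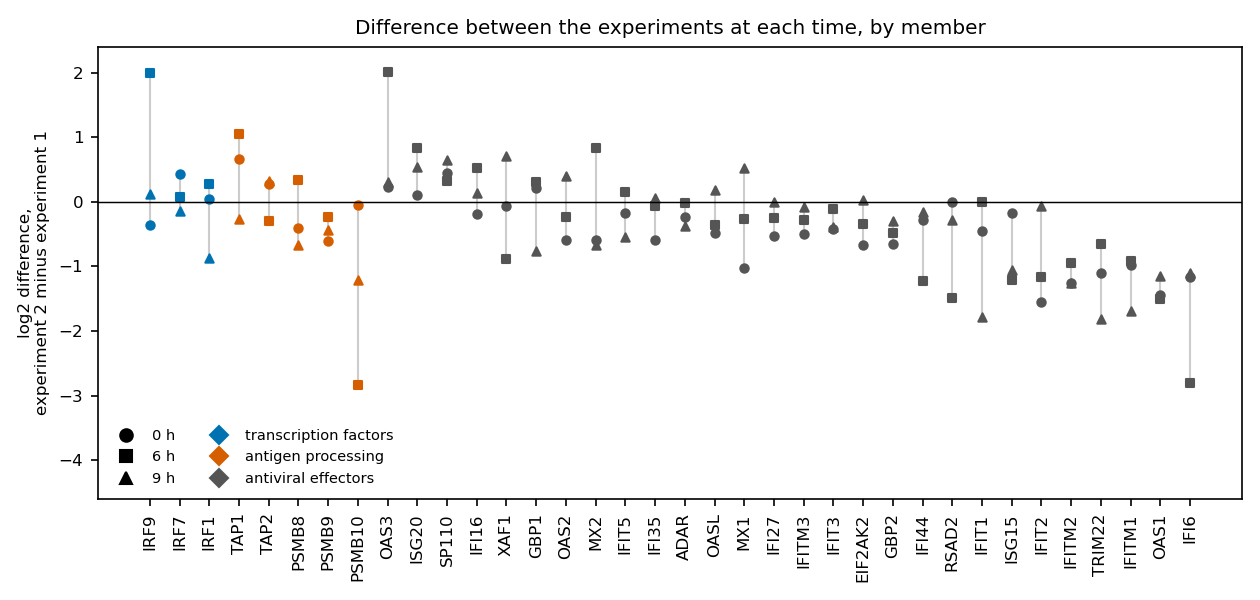
Log2 difference between experiment 2 and experiment 1 for the 36 tested members at 0 h (circles), 6 h (squares) and 9 h (triangles), coloured by role. IFITM1, IFITM2, OAS1, TRIM22 and IFI6 lie below 0 at every time, with IFI6 and PSMB10 furthest down at 6 h.

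The rest of the pathway gave no call either: 0 of the genes in the lists below passed the limma test at 6 h or 9 h. Of 10 receptor and signalling genes 9 were tested, with medians of -0.10 (6 h) and 0.03 (9 h) in log2 change. JAK2, one of the JAK kinases, had 0.83 ± 0.47 and IFNAR1, a chain of the type I receptor, -0.53 ± 0.50 at 9 h. Of 8 RNA sensor and adaptor genes 7 were tested (medians 0.40 and 0.11), and 3 had induced arrays above both 0 h arrays at each time, beside 16.8% of all tested genes at 6 h and 19.2% at 9 h. TBK1, the kinase that activates IRF3 and IRF7, had 0.82 ± 0.44 at 6 h and 1.51 ± 0.44 at 9 h (limma adjusted p = 0.587, 0.0605 with the block). TICAM1, the adaptor of the RNA receptor TLR3, had 1.10 ± 0.45 and 0.84 ± 0.45. Both were below 0 at 6 h in unscaled values (-0.76 and -0.28).

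Of 15 interferon genes 8 were tested, with medians of -0.06 and -0.14. IFNB1, IFNA8 and IFNW1 were at the floor in every array. Of 14 interferon genes with a probe set 6 to 9 lay above it, with a summed intensity between 272 and 515. IFNA10 had -1.10 ± 0.49 at 9 h and IFNA14 -0.40 ± 0.58. The IFNA genes are near-identical copies that may share signal. Among the 7 feedback brakes (medians 0.09 and 0.03), IRF2, which competes with IRF1 for the ISRE, had -0.84 ± 0.44 at 6 h and -0.51 ± 0.44 at 9 h. SOCS1, an inhibitor of JAK kinases, lay at the floor in the uninduced arrays, so its 6 h level was at least 2.07-fold higher on its brightest probe set. Of its 3 probe sets 2 had that sign at 6 h, its unscaled log2 change there was 0.56, and at 9 h it had 0.30 ± 0.36 with overlapping groups. Class I and peptide-loading genes kept medians of 0.09 and -0.10 over 12 tested of 14. Of these TAPBP, tapasin, which bridges the transporter and class I molecules, had -0.63 ± 0.32 at 6 h and -1.40 ± 0.32 at 9 h (limma adjusted p = 0.543, 0.0821 with the block), with both groups of induced arrays below the 0 h arrays and 1 of its 2 probe sets of that sign at 9 h. CALR, the chaperone calreticulin, had -0.53 ± 0.41 at 9 h. B2M, the light chain of class I, had 0.15 ± 0.21 and 0.14 ± 0.21. The 6 class II genes had medians of -0.34 and -0.15, with HLA-DPA1 at -0.72 ± 0.77 and HLA-DPB1 at 0.66 ± 0.62 at 9 h. They were dim, with 3 to 6 of them above the floor and a summed intensity between 145 and 297.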

How the data were processed

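Each of the 6 Affymetrix arrays has a table of intensity values per probe set, deposited by the authors on a linear scale. The sources used here do not name the software behind them. All 22283 probe sets were quantile normalised, values below the 25th percentile were raised to it (12.7), and log2 was taken. The 68 controls and probe sets above this floor in fewer than 2 arrays were left out. The remaining 18360 were fitted with limma 3.58.1 in R 4.3.3 (eBayes with trend, 3 residual degrees of freedom, Benjamini-Hochberg adjustment over all of them, threshold 0.05). The brightest tested probe set stands for a gene, and ± is the standard error of the fit. Probe sets naming several genes were not used.

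The experiment number marks a shared RNA batch. Deviations from the group means correlated within an experiment at 0.247 (0 h with 6 h), 0.336 (0 h with 9 h) and 0.391 (6 h with 9 h). The members and lists were chosen with earlier results of these data known. Values by array are given for every transcription factor and antigen-processing member, for the antiviral members with the 4 largest changes each way at 6 h and 9 h of the same sign in both experiments, and for the 3 largest differences each way between experiments. Up to 2 genes of each pathway list were named by size at 9 h. The 5 printed promoters were picked, and IFITM1, IFITM3, OAS2, IFIT5, IFI35, SOCS1 and B2M named, after their values were seen.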

Additional observations from a re-analysis of the deposited data

How the results depend on the processing

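The call rests on 6 arrays of unequal brightness, and probe sets near the floor carry little signal over background. Without scaling, members, antiviral and antigen-processing members had median log2 changes of -1.67, -1.60 and -2.42 (6 h), -0.83, -0.79 and -1.43 (9 h), and 0.83, 0.82 and 1.17 for 9 h against 6 h. IRF1, TAP2, XAF1, EIF2AK2 and GBP1 turned to -0.82, -1.29, -0.81, -1.09 and -1.15 at 6 h, and SP110 and GBP2 to -0.054 and -0.23 at 9 h. With trimmed mean scaling IRF9 had 0.056 at 9 h, and the members had -0.12 for 9 h against 6 h. With the median of all probe sets EIF2AK2 had -0.10 at 6 h and TAP2 0.016 at 9 h. Without probe sets ending in _x_at or _s_at these were -0.63 and 0.31, IFI44 had 0.64 at 6 h, the members and the antiviral members had -0.041 and -0.065 at 9 h, and 0.072 and -0.032 for 9 h against 6 h.

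Without a filter on dim probe sets 24, 12 and 18 probe sets passed at 6 h, at 9 h and for 9 h against 6 h, 0 members and 0 probe sets passed between the experiments, the antiviral median at 9 h was -0.17, and the members had -0.048 for 9 h against 6 h. The last was -0.081 with a pseudocount. With all 6 arrays above the floor the antigen-processing median for 9 h against 6 h was 0.041. With the experiment as a replicate block 66 probe sets passed at 9 h, and the block changed no other call among the comparisons of times. With the lot line as the block the medians for 9 h against 6 h were 0.12 for the members, 0.061 for the antiviral and 0.43 for the antigen-processing members, and that of the last between the experiments was -0.52, with 0 members and 0 probe sets past the threshold.

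Between the experiments 6 probe sets and 0 members passed in unscaled values, 922 and 4 with a pseudocount, and 1061 and 3 with all arrays above the floor. With a floor at the 10th percentile 2 members passed. IFITM2 kept its direction in the alternatives that could measure it; it has no value without probe sets ending in _x_at or _s_at. The causes of these shifts were not tested.

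Leaving out 1 array in turn, 0 probe sets passed in the comparisons of times. The member, antiviral and antigen-processing medians ran from -0.42 to 0.021, -0.38 to 0.055 and -1.18 to -0.77 at 6 h, from -0.38 to -0.077, -0.40 to -0.051 and -1.18 to -0.44 at 9 h, from -0.22 to 0.17, -0.26 to 0.10 and -0.21 to 0.51 for 9 h against 6 h, and from -0.39 to -0.18, -0.42 to -0.19 and -0.53 to -0.033 between the experiments. There 361 (without the 6 h array of experiment 1) to 1689 (without the 0 h array of experiment 2) probe sets and 1 to 5 members passed. IRF9 ran from -1.63 to 0.37 at 6 h and from -0.19 to 0.17 at 9 h, TAP2 from -0.44 to 0.31, SP110 from -0.24 to 0.82 and GBP2 from -0.011 to 0.66 at 9 h.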

Other observations

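A few antiviral members lay above the floor in only 1 or 2 arrays. IFI44L was above it in the 9 h array of experiment 1 alone, at 35.9 intensity units. In that array IFIT1, a sensor of viral RNA caps, read 43.7, beside 17.3 in the 0 h array of experiment 1 and the floor in the other 4. RSAD2 (viperin), which makes an antiviral nucleotide, read 35.7 in the 6 h array of experiment 1 and 15.5 in the 9 h array of that experiment, with the other 4 at the floor. Its deposited values in experiment 1 were 24.4 (0 h), 14.1 (6 h) and 14.8 (9 h), so the order of those arrays holds only after scaling. All these readings above the floor lay in experiment 1.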
